A study of Mus musculus with 12 samples.

Results

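The genes of DNA replication and S phase were followed through RNA sequencing of liver T cells that carry the CD3 complex but neither CD4 nor CD8, called double negative (DN) T cells. The set has 31 members of the 55401 genes in the deposited count table, and was given as a list of symbols drawn up with earlier results of these data known. All 31 were found in the table, each under 1 identifier, and 30 of them passed the filter on low counts that left 22107 genes to be tested. The member that did not pass was Fen1, the nuclease that trims the flaps of lagging strand fragments.

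The 4 groups of 3 libraries each came from adult C57BL/6 mouse liver. They were DN T cells bearing the γδ T cell receptor with arachidonic acid (AA), the same population without AA, DN T cells bearing the αβ receptor with AA, and that population without AA. All cells were live, CD45+ and NK1.1− by their sort, which per the labels took place before 48 h of stimulation with AA, a polyunsaturated fatty acid that cells turn into prostaglandins and leukotrienes. How long the cells without AA were kept in culture is not stated, so time in culture and AA cannot be told apart. Nor do the labels tie replicates to separate animals or cultures, so the spread behind each p-value may be technical.

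A cell copies its DNA once in each division. In G1 the loaders Cdc6 and Cdt1 place the ring of Mcm2 to Mcm7, the core of the replicative helicase, on origins, and at the G1 to S boundary the E2F factors and cyclin E switch on the genes and kinases that let Cdc45 and the GINS complex start it. Primase, polymerases, the sliding clamp and its loader then copy both strands while ribonucleotide reductase, thymidine kinase and thymidylate synthase supply nucleotides and chromatin factors rebuild nucleosomes behind the fork. T cells are small resting cells until stimulated, and transcripts of this machinery are commonly read as a sign of cycling cells.

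The libraries did not all go with their labels, and this bears on every value that follows. Total counts were 18301268 to 23461265 in γδ with AA, 19327567 to 24145149 in γδ without AA, 6036487 to 17021782 in αβ with AA and 21189619 to 30548253 in αβ without AA, so αβ with AA was measured least deeply. Trdc, the constant region of the δ chain, was at 246, 265 and 11.6 CPM (its counts scaled to library totals of equal size) in γδ without AA replicates 1, 2 and 3. In αβ without AA it was at 3.70, 5.90 and 201 CPM in that order. Both replicate 3 libraries without AA thus went against their labels. Counts of members lower with AA at an unadjusted p are given with and without them. Counts by role, by overlap and of other lists include them, as do the values of single genes. With AA, Trdc was at 208, 197 and 69.8 CPM in γδ and at 55.4, 5.35 and 52.8 CPM in αβ, so αβ replicates 1 and 3 lay close to the lowest γδ library. Trac, the constant region of the α chain, is given in CPM scaled by the trimmed mean of M values. With AA it was at 519, 675 and 396 in γδ and at 54.5, 57.8 and 134 in αβ. Trac with AA thus went against the labels too. Without AA it was at 132, 416 and 481 in γδ and at 607, 551 and 333 in αβ. The αβ libraries with AA also differed most among themselves, with correlations of log2 CPM across genes between replicates of 0.65 to 0.78, against 0.87 to 0.95 in the other groups. In αβ with AA replicate 3 the repeat gene Gm10800 took 218546 CPM, against 15.6 to 14182 CPM in the other 11 libraries. Macrophage and monocyte markers took 0.860% to 2.27% of counts in γδ with AA and 0.387% to 3.64% in γδ without AA. In αβ they took 0.648% to 1.63% with AA and 0.183% to 2.38% without AA. All 14 of these markers had counts, but Lyz2 made up most of the share in every library. Clec4f, Vsig4 and C1qc had counts in at most 4 libraries. The 11 genes of T cells and of the sort gate, all with counts, took 0.305% to 0.550% in γδ with AA, 0.393% to 0.535% in γδ without AA, 0.119% to 0.173% in αβ with AA and 0.336% to 0.412% in αβ without AA. The 8 dendritic cell markers, all with counts, took 0.0112% to 0.0149% in γδ with AA, against 0.00292% to 0.00380% in γδ without AA, and 0.00321% to 0.00800% in αβ with AA, against 0.00106% to 0.00428% in αβ without AA. The γδ groups did not overlap there, but single markers did not all go the same way. In γδ Flt3, Zbtb46 and Batf3 were higher with AA without overlap, Itgax was lower without overlap, and the other markers overlapped. In CPM scaled as for Trac, Flt3 was at 58.25, 36.2 and 90.3 with AA, against 8.26, 7.89 and 2.36 without AA. Itgax was at 4.42, 3.36 and 0.0554 with AA, against 13.8, 7.85 and 14.0 without AA. The 9 neutrophil markers took 0.133% to 0.256% in γδ with AA, against 0.0298% to 0.152% in γδ without AA, and 0.0417% to 0.129% in αβ with AA, against 0.0207% to 0.274% in αβ without AA, with overlap in both populations. B and plasma cell markers took 0.0643% to 0.195% in γδ with AA, against 0.103% to 0.587% in γδ without AA. In αβ they took 0.255% to 0.968% with AA, above the T cell genes in every library, against 0.137% to 0.847% without AA. They were also above the T cell genes in αβ without AA replicates 1 and 2 and in γδ without AA replicate 3. Basophil and mast cell markers took 0.0471% to 0.0935% in γδ with AA, against 0.0213% to 0.229% in γδ without AA. In αβ they took 0.0768% to 0.738% with AA, against 0.0507% to 0.371% without AA. The part of these markers in the member levels was not tested. In such bulk samples, fewer cycling cells and less of these transcripts per cell cannot be told apart.

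Replication and S phase transcripts were at lower levels with AA in both populations. The summed level of the 31 members, in CPM scaled by the trimmed mean of M values (TMM), was 2658, 2092 and 2020 in the 3 γδ libraries with AA, against 2801, 4741 and 4487 in the 3 γδ libraries without AA. In αβ cells the sum was 2285, 2071 and 2532 with AA, against 4872, 4793 and 4154 without AA. No library with AA reached the lowest library without AA in its population, but γδ without AA replicate 1, at 2801, stood next to the highest γδ library with AA. That library also had the highest share of macrophage markers of all 12, at 3.64%, most of it from Lyz2. The part of these markers in its low sum was not tested. In γδ libraries with AA 25 to 28 of the 30 tested members lay below their own median over 12 libraries, against 17, 0 and 3 without AA, and in αβ libraries 19 to 27 did with AA against 2 to 4 without AA.

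**Figure D1:**
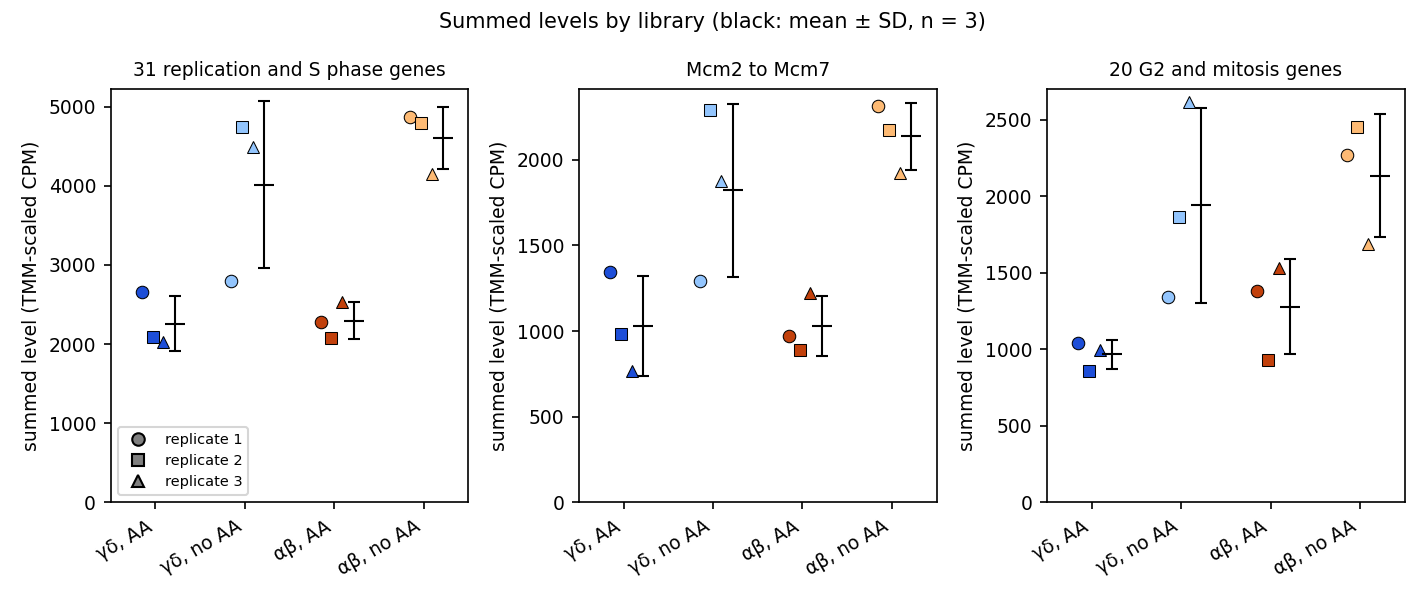
Summed level in TMM-scaled CPM (y axis) of the 31 members, of Mcm2 to Mcm7 and of 20 G2 and mitosis genes, with 1 point per library by group (x axis, replicate by symbol) and the mean ± SD of 3 libraries in black. The member sum averaged 2257 ± 349 in γδ with AA and 4009.7 ± 1055 in γδ without AA, and 2296 ± 230.2 in αβ with AA and 4607 ± 394 in αβ without AA.

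Gene by gene, none of the 30 tested members passed an adjusted p of 0.05 in any of 6 comparisons with edgeR's quasi-likelihood test over all 22107 genes. That test called few genes at all, 0.00905% of them for AA in γδ, 0.0136% for AA in αβ and 0% for the mean AA effect of both populations. At an unadjusted p under 0.05, 14 of the 30 members were lower with AA in γδ and 0 higher, where 3.85% of all tested genes were lower. In αβ 16 members were lower and 0 higher, against a background of 6.01%, and over the mean of both populations 19 were lower and 0 higher, against 5.23%. The fold change was below 1 for 29 members in γδ, 27 in αβ and 30 in the mean of both. The median log2 fold change of the members was -0.94 in γδ, -0.98 in αβ and -0.98 in the mean of both, where all tested genes had medians of -0.06, 0.12 and -0.05.

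The counts in both populations depended on single libraries, and that in αβ also on the scaling and the filter. With both replicate 3 libraries without AA left out, 9 members were lower at that p in γδ, 14 in αβ and 18 in the mean of both, where 2.18%, 3.51% and 3.27% of all tested genes were. Leaving out γδ with AA replicate 2 or γδ without AA replicate 2 likewise left 9 in γδ, against 2.73% and 3.99% of all tested genes. Leaving out αβ with AA replicate 1 or 3 left 14 in αβ, against 3.90% and 3.73%. Leaving out αβ without AA replicate 1, 2 or 3 left 11, 12 and 13 in αβ, against 3.40%, 2.90% and 2.94%. With Gm10800 and the like repeat gene Gm21738 left out, 13 were lower in γδ, 14 in αβ and 19 in the mean of both. Of all tested genes 3.62%, 4.89% and 4.30% were. With DESeq2's size factors as the scaling, the count was 8 in αβ, against 2.04% of all tested genes, and the member median there was -0.59, on a scale where the median of all genes moved to 0.50. A filter of at least 5 CPM in 3 libraries also left 8 in αβ, against 4.03%. The gap from the median of all genes to that of the members was -1.10 with TMM and with the size factors, and -0.67 with that filter. In αβ the share of counts from T cell genes was also lower with AA, and counts of members per count of Cd3d, Cd3e and Cd3g were 18.0, 56.3 and 9.91 with AA, against 23.3, 18.4 and 6.71 without AA. In γδ that ratio was 6.54, 3.85 and 6.39 with AA, against 3.73, 7.72 and 11.1 without AA. Groups overlapped in both populations, unlike the summed CPM. The part of the cell makeup in the member levels was not tested.

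**Figure D2:**
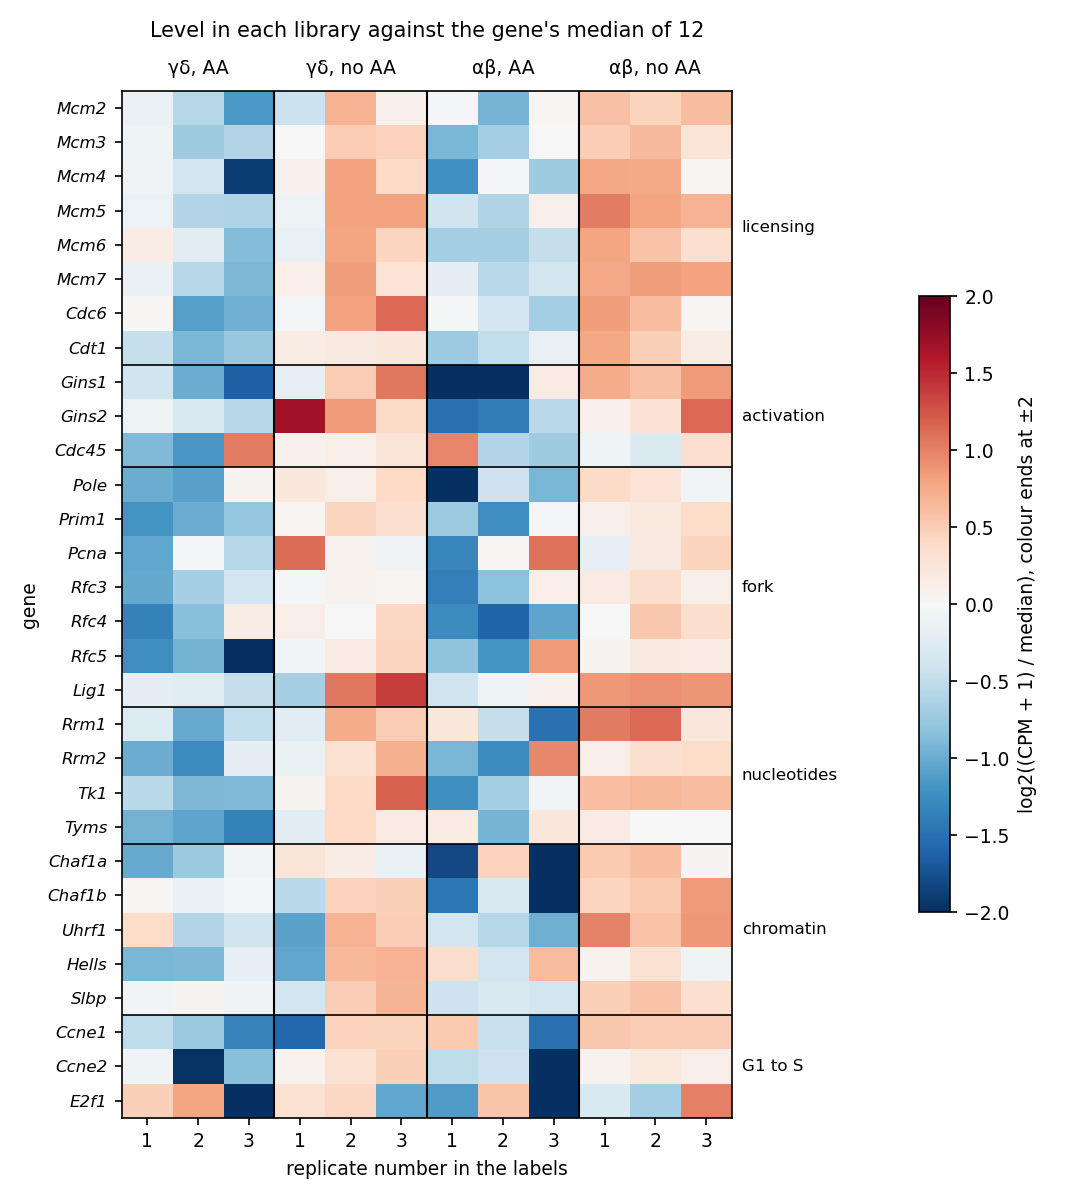
Level of the 30 tested members (rows, by role) in each of the 12 libraries (columns, by group and replicate), as log2 of CPM + 1 over the gene's median. Blue is below and red above that median, and γδ without AA replicate 1 differs from its 2 fellow libraries with 17 members below their median.

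Origin licensing gave an even pattern. All 8 of its members had fold changes below 1 in both populations, and 7 were lower with AA at an unadjusted p under 0.05 in γδ, 7 in αβ and 8 in the mean of both, with a median log2 fold change of -0.92 in γδ and -1.04 in αβ. Mcm6 had the highest mean level per kilobase of exon over the 12 libraries of any member, at 87.4 CPM per kb, followed by Mcm3 at 79.6 and Mcm5 at 74.5 CPM per kb. Mcm7 at 43.5, Mcm2 at 31.8 and Mcm4 at 24.1 CPM per kb came lower, although these proteins act in 1 ring.

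Mcm7, a helicase subunit, had the smallest p of all members in αβ and over both populations. It had 153, 112 and 89.1 CPM in γδ with AA, against 183, 300.3 and 203 CPM in γδ without AA. In αβ it had 148, 115 and 129 CPM with AA, against 284, 299.6 and 293 CPM without AA. The groups did not overlap in either population, and αβ without AA was the tightest of the 4, at 292 ± 7.85 CPM. The log2 fold change was -0.95 ± 0.29 in γδ, -1.16 ± 0.29 in αβ and -1.06 ± 0.20 in the mean of both (SE), with an adjusted p of 0.635, 0.269 and 0.165 in that order. Of its exon bases 12.6% are shared with other genes, among them Cops6 and Ap4m1 on the opposite strand, and the counting's use of strand is not given.

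Mcm5 had 227, 163 and 160.5 CPM in γδ with AA, against 229.8, 428 and 429 CPM in γδ without AA, and 186, 161 and 262 CPM in αβ with AA, against 503, 423 and 399 CPM in αβ without AA. Groups did not overlap, but γδ with AA replicate 1 and γδ without AA replicate 1 lay within 3 CPM of each other. Its log2 fold change in the mean of both was -1.05 ± 0.21, with an adjusted p of 0.176.

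Mcm6 had 417, 322 and 207 CPM in γδ with AA, against 342, 657 and 510.4 CPM in γδ without AA, where the groups overlapped. In αβ it had 239, 238 and 273 CPM with AA, against 656, 562 and 473 CPM without AA, where they did not. The log2 fold change was -0.67 ± 0.30 in γδ and -1.17 ± 0.30 in αβ. The difference of the 2 effects, 0.50 ± 0.43 with a 95% interval of -0.41 to 1.41, did not pass the test (adjusted p = 0.767).

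The other ring subunits lay in the same range. Mcm3 had 274, 177 and 193 CPM in γδ with AA, against 289.6, 415 and 401 CPM in γδ without AA, and 153, 182 and 291 CPM in αβ with AA, against 408, 456 and 346 CPM in αβ without AA. Mcm2 had 196, 144 and 95.8 CPM in γδ with AA, against 159, 348 and 226 CPM in γδ without AA, and 208, 112 and 220.0 CPM in αβ with AA, against 322, 291 and 328 CPM in αβ without AA. Mcm4 had 78.6, 63.6 and 21.5 CPM in γδ with AA, against 87.9, 145 and 109 CPM in γδ without AA, and 34.9, 79.9 and 49.8 CPM in αβ with AA, against 142, 139.7 and 85.1 CPM in αβ without AA. Groups of Mcm3 and Mcm4 did not overlap in either population, while those of Mcm2 did in γδ, through γδ without AA replicate 1. Their log2 fold changes in the mean of both were -0.86 ± 0.21 for Mcm3, -0.77 ± 0.25 for Mcm2 and -1.11 ± 0.33 for Mcm4.

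The loaders went the same way. Cdt1, which brings the ring to the origin, had 59.7, 43.3 and 48.0 CPM in γδ with AA, against 90.9, 92.9 and 95.4 CPM in γδ without AA, and 49.3, 57.9 and 74.3 CPM in αβ with AA, against 141, 114 and 91.4 CPM in αβ without AA. Its groups did not overlap, γδ without AA was tight at 93.1 ± 2.27 CPM, and the log2 fold changes were -0.89 ± 0.31 in γδ and -0.94 ± 0.31 in αβ. Cdc6, the ATPase that loads the ring, averaged 38.3 ± 18.0 CPM in γδ with AA and 96.0 ± 36.1 CPM in γδ without AA, and 45.5 ± 10.4 CPM in αβ with AA and 84.7 ± 23.1 CPM in αβ without AA.

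The RefSeq promoter windows of the members, from 250 bases before to 50 after the start on GRCm38.p6, were searched for short sequence words. Windows were in the table used for 26 of the 31 members. The E2F words searched were TTTCCCGC, TTTCGCGC, TTTGCCGC and TTTGGCGC, on both strands. At least 1 window held such a word in 10 of the 26 members (38.5%), against 2.6% of 27025 genes. The 10 were Mcm3, Mcm5, Mcm6, Mcm7, Cdc6, Cdt1, Rfc3, Lig1, Uhrf1 and Hells. The word CCAAT was in 53.8% of the members and 41.1% of all genes, and TTTGAA was in 11.5% of the members and 20.2% of all genes. A match is a description of the letters and not of binding, and its relation to the fold changes was not tested. Tk1, Rrm1, Prim1 and Rfc4 were among the members that held none of the E2F words. E2F factors switch on genes of replication, so the share in a list of such genes cannot bear on the effect of AA. The 4 stretches upstream of the start and clear of exons that follow are shown because they hold the words of 4 members described here, which stand in capitals; the pair in Mcm5 overlaps, as does the first pair in Mcm6.
Mcm5, chr8:75109348-75109477, plus strand: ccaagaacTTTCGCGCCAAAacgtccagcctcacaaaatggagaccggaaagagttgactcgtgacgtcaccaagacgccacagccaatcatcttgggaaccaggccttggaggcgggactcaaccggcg
Mcm6, chr1:128359706-128359835, minus strand: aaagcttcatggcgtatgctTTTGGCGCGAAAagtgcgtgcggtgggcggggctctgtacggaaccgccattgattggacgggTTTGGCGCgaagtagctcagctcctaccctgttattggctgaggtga
Cdc6, chr11:98908001-98908130, plus strand: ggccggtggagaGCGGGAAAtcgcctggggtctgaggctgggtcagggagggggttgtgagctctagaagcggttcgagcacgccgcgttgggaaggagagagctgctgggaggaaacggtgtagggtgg
Uhrf1, chr17:56304116-56304245, plus strand: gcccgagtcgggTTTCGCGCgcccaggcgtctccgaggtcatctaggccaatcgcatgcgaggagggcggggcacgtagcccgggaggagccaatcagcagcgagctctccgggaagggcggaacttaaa

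Helicase activation was less even. Gins2, a subunit of the GINS complex, averaged 12.9 ± 2.13 CPM in γδ with AA and 35.3 ± 17.0 CPM in γδ without AA, and 7.19 ± 3.22 CPM in αβ with AA and 24.8 ± 10.3 CPM in αβ without AA, without overlap in either population. Its log2 fold change was -1.45 ± 0.61 in γδ and -1.79 ± 0.62 in αβ, but 67.3% of its exon bases are shared with Gse1 on the opposite strand. Gins1, another subunit, averaged 10.9 ± 4.93 CPM in γδ with AA and 31.8 ± 13.2 CPM in γδ without AA. In αβ it averaged 9.28 ± 13.0 CPM with AA, with no count in replicate 1 and 24.2 CPM in replicate 3, and 36.3 ± 3.43 CPM without AA. Cdc45, the third part of the active helicase, differed little between the means, at 10.9 ± 10.5 CPM in γδ with AA and 12.2 ± 0.787 CPM in γδ without AA, and 11.7 ± 9.07 CPM in αβ with AA and 10.8 ± 2.68 CPM in αβ without AA. The 95% interval of its log2 fold change ran from -2.01 to 1.68 in γδ and from -1.73 to 1.97 in αβ, so that changes of the size of Mcm7's are within it.

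At the fork, 3 of 7 tested members were lower at an unadjusted p under 0.05 in γδ, 3 in αβ and 5 in the mean of both. Rfc4, a subunit of the clamp loader, had 29.8, 43.1 and 85.9 CPM in γδ with AA, against 85.3, 78.5 and 103 CPM in γδ without AA. In αβ it had 31.7, 25.1 and 36.9 CPM with AA, against 77.1, 114 and 99.5 CPM without AA, which did not overlap. The log2 fold change was -0.75 ± 0.40 in γδ and -1.63 ± 0.41 in αβ, where the adjusted p was 0.269, and 12.7% of its exon bases are shared with Eif4a2 on the opposite strand.

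Prim1, the catalytic subunit of primase, had 22.5, 26.4 and 30.8 CPM in γδ with AA, against 54.6, 71.8 and 66.9 CPM in γδ without AA, and 31.8, 21.9 and 51.8 CPM in αβ with AA, against 57.0, 61.3 and 69.2 CPM in αβ without AA. Its groups did not overlap in either population, with a log2 fold change of -1.28 ± 0.41 in γδ and -0.83 ± 0.40 in αβ. Lig1, the ligase that seals the fragments, averaged 64.7 ± 6.82 CPM in γδ with AA and 142 ± 82.7 CPM in γδ without AA, and 73.3 ± 12.1 CPM in αβ with AA and 148 ± 1.69 CPM in αβ without AA. Rfc3, of the same clamp loader, averaged 43.6 ± 9.76 CPM in γδ with AA and 70.8 ± 2.89 CPM in γδ without AA, and 47.4 ± 26.3 CPM in αβ with AA and 81.0 ± 7.24 CPM in αβ without AA. Pole, the catalytic subunit of the leading strand polymerase, averaged 20.9 ± 10.4 CPM in γδ with AA and 37.5 ± 3.84 CPM in γδ without AA, and 14.6 ± 9.68 CPM in αβ with AA and 36.7 ± 5.86 CPM in αβ without AA.

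Rfc5, a further loader subunit, varied widely from library to library. It had 24.6, 30.3 and 1.55 CPM in γδ with AA, against 56.9, 66.7 and 80.6 CPM in γδ without AA, and 33.7, 25.5 and 108 CPM in αβ with AA, against 62.1, 67.6 and 66.9 CPM in αβ without AA. Replicate 3 with AA was the lowest of all 12 libraries in γδ and the highest in αβ, so the αβ groups overlapped and the γδ groups did not.

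Pcna, the sliding clamp, was measured at low levels. It had 5.58, 12.4 and 8.09 CPM in γδ with AA, against 28.4, 13.1 and 11.9 CPM in γδ without AA, and 4.46, 12.7 and 27.6 CPM in αβ with AA, against 11.1, 14.3 and 17.4 CPM in αβ without AA. Groups overlapped in both populations, and the log2 fold change was -1.04 ± 0.78 in γδ and 0.06 ± 0.77 in αβ, with a 95% interval of -1.60 to 1.72 in αβ, which holds Mcm7's change. Its mean level of 5.80 CPM per kb of exon over the 12 libraries was among the lower ones of the set, and the pseudogenes Pcna-ps1 and Pcna-ps2 held 0 to 13 counts in a library against 49 to 498 counts for Pcna. Fen1 had 0, 0 and 0 counts in γδ with AA and 3, 0 and 3 in γδ without AA, and 9, 1 and 0 in αβ with AA and 0, 0 and 2 in αβ without AA. Of its exon bases 84.2% are shared with Gm10143 and Tmem258 on the opposite strand, whose part in these few counts was not tested.

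**Figure D3:**
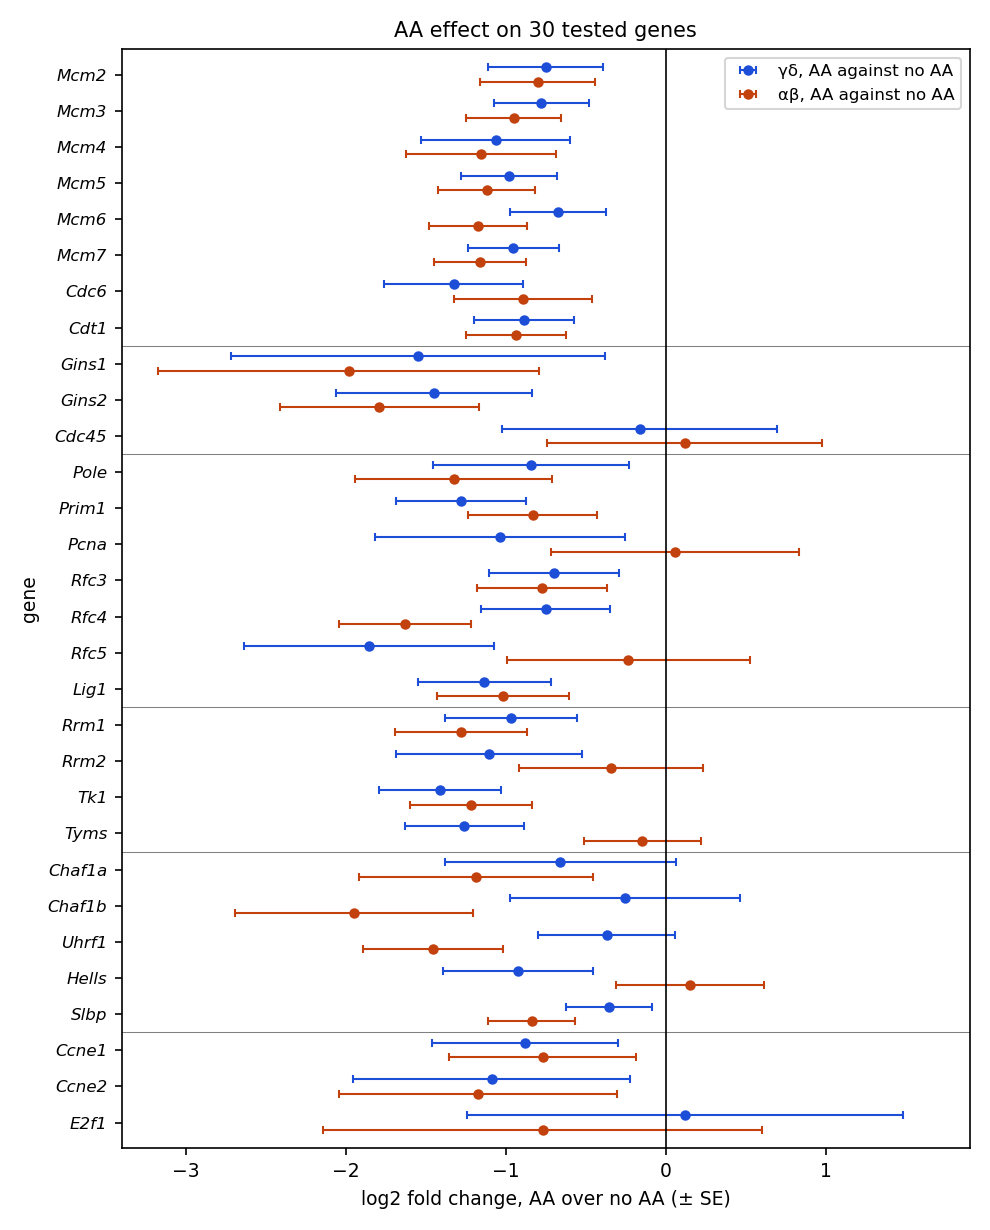
Log2 fold change of AA over no AA with its SE (x axis) for each of the 30 tested members (rows, by role, divided by lines), in γδ (blue) and αβ (orange). Points lie left of 0 for 29 members in γδ and 27 in αβ, and all 8 licensing genes at the top lie left of 0 in both.

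Nucleotide supply held the member with the smallest p in γδ. Tk1, thymidine kinase of the salvage pathway, had 55.5, 43.3 and 43.4 CPM in γδ with AA, against 84.7, 107 and 186 CPM in γδ without AA. In αβ it had 34.3, 50.9 and 78.1 CPM with AA, against 124, 129.9 and 125 CPM without AA. Neither population's groups overlapped, and the log2 fold change was -1.41 ± 0.38 in γδ, -1.22 ± 0.38 in αβ and -1.31 ± 0.27 in the mean of both, with an adjusted p of 0.635, 0.400 and 0.176 in that order.

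Tyms, thymidylate synthase, which makes dTMP anew, had 40.0, 36.9 and 29.7 CPM in γδ with AA, against 66.5, 102 and 86.7 CPM in γδ without AA. In αβ it had 87.0, 40.2 and 91.2 CPM with AA, against 86.6, 77.2 and 77.9 CPM without AA. Only the γδ groups were apart, and the log2 fold change was -1.26 ± 0.37 in γδ and -0.15 ± 0.37 in αβ. The difference of the 2 effects, -1.11 ± 0.52 with a 95% interval of -2.23 to 0.00, had the smallest p of all members in that comparison and an adjusted p of 0.521.

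Rrm1, the large subunit of ribonucleotide reductase, had 239, 143 and 207 CPM in γδ with AA, against 249.9, 487 and 413 CPM in γδ without AA, and 335, 208 and 102 CPM in αβ with AA, against 596, 633 and 339 CPM in αβ without AA. The groups did not overlap, though 335 lay beside 339 CPM in αβ, with a log2 fold change of -0.97 ± 0.41 in γδ and -1.28 ± 0.41 in αβ. Rrm2, the small subunit whose level limits the enzyme in S phase, averaged 25.1 ± 11.0 CPM in γδ with AA and 53.9 ± 15.8 CPM in γδ without AA, and 40.9 ± 37.0 CPM in αβ with AA and 51.8 ± 4.40 CPM in αβ without AA.

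Among factors that act on chromatin behind the fork, 0 of 5 were lower at an unadjusted p under 0.05 in γδ and 3 of 5 in αβ. Uhrf1, which recruits the maintenance DNA methyltransferase, had 109.7, 55.9 and 63.7 CPM in γδ with AA, against 39.9, 137 and 119 CPM in γδ without AA. In αβ it had 65.2, 56.9 and 42.7 CPM with AA, against 169.7, 126 and 156 CPM without AA. The αβ groups were far apart and the γδ groups overlapped through γδ without AA replicate 1, with a log2 fold change of -0.37 ± 0.43 in γδ and -1.45 ± 0.44 in αβ. Chaf1b, a subunit of the assembly factor CAF-1, had 65.9, 59.2 and 64.4 CPM in γδ with AA, against 44.4, 90.5 and 91.5 CPM in γδ without AA, and 23.4, 52.5 and 1.64 CPM in αβ with AA, against 88.2, 94.6 and 118 CPM in αβ without AA. Its γδ values with AA lay close together while its αβ values with AA did not, and the difference of the 2 effects was 1.69 ± 1.02, with an adjusted p of 0.625.

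Hells, a chromatin remodeller, was the member of this role with a fold change above 1 in αβ. It had 33.2, 33.8 and 57.0 CPM in γδ with AA, against 30.5, 101 and 104 CPM in γδ without AA, and 81.6, 48.4 and 99.2 CPM in αβ with AA, against 66.9, 78.8 and 60.6 CPM in αβ without AA. Groups overlapped in both populations, and the log2 fold change was -0.93 ± 0.47 in γδ and 0.15 ± 0.46 in αβ. Slbp, which binds the stem loop of histone messages, averaged 294 ± 14.6 CPM in γδ with AA and 377 ± 131 CPM in γδ without AA, and 231 ± 7.66 CPM in αβ with AA and 413 ± 35.5 CPM in αβ without AA. Chaf1a, the partner of Chaf1b, averaged 24.4 ± 8.98 CPM in γδ with AA and 38.5 ± 5.15 CPM in γδ without AA, and 21.2 ± 25.4 CPM in αβ with AA and 48.5 ± 9.42 CPM in αβ without AA, with 52.5% of its exon bases shared with Ubxn6 on the opposite strand.

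The 3 genes of the G1 to S switch gave 0 members lower at that p in each population. Ccne1, cyclin E1, averaged 29.0 ± 8.39 CPM in γδ with AA and 53.4 ± 31.7 CPM in γδ without AA, and 43.7 ± 29.3 CPM in αβ with AA and 74.7 ± 0.991 CPM in αβ without AA. Ccne2, cyclin E2, averaged 25.2 ± 15.6 CPM in γδ with AA and 53.7 ± 7.64 CPM in γδ without AA, and 21.0 ± 17.8 CPM in αβ with AA and 47.7 ± 2.03 CPM in αβ without AA, with no overlap in either population. E2f1, the transcription factor, was low throughout, at 0.111 to 12.5 CPM in γδ with AA, 2.80 to 9.36 CPM in γδ without AA, 0.908 to 10.5 CPM in αβ with AA and 3.89 to 14.8 CPM in αβ without AA, and groups overlapped in both populations. Its log2 fold change of -0.33 ± 0.96 in the mean of both had a 95% interval of -2.40 to 1.74, too wide to tell a change of the size of Mcm7's from none.

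**Figure D4:**
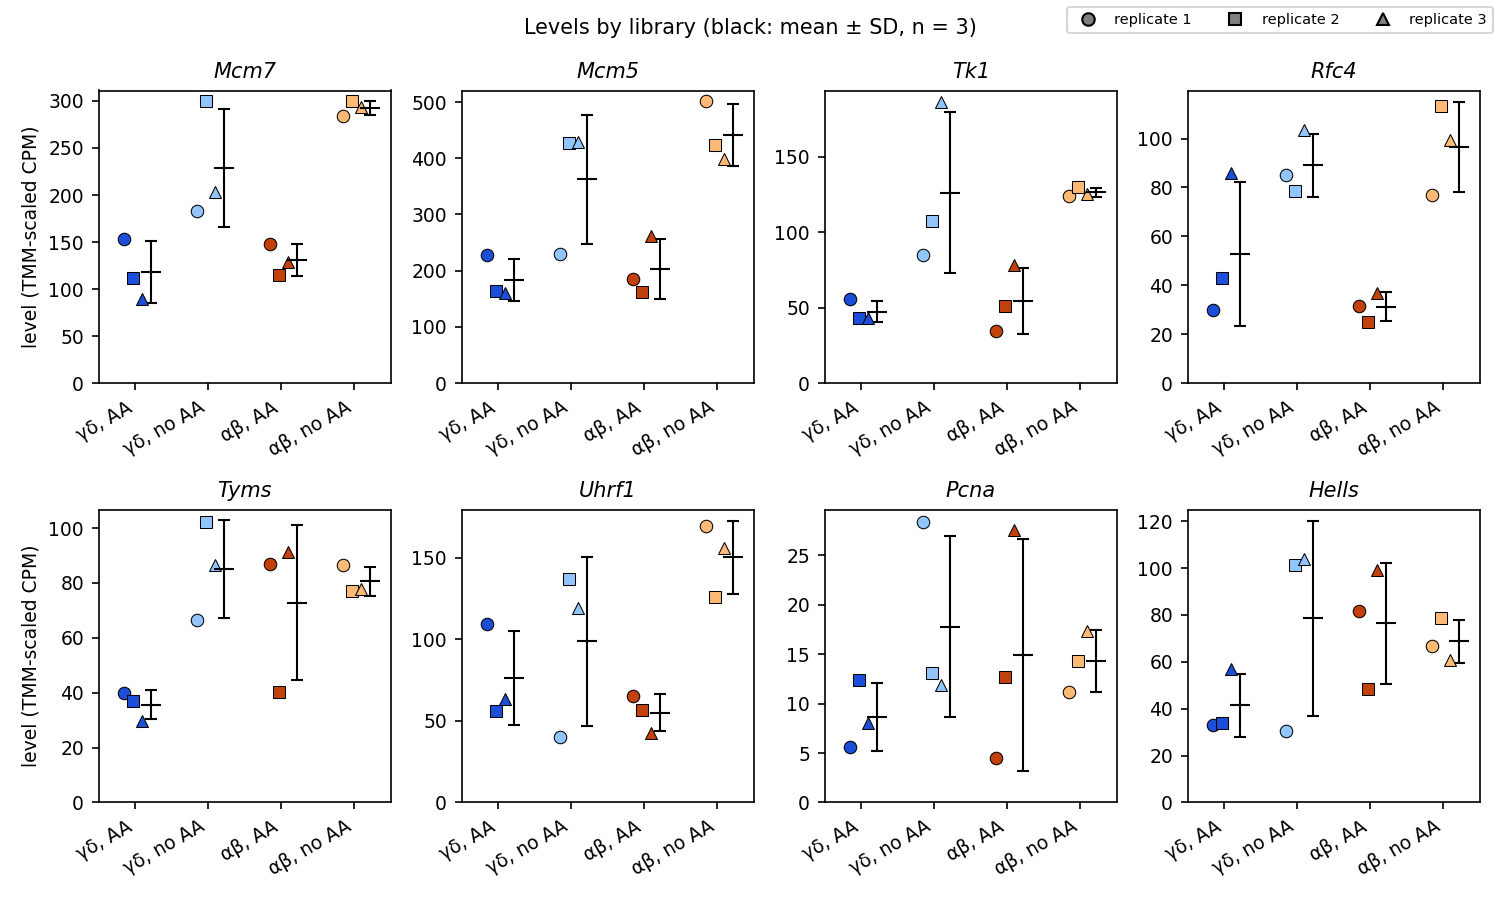
Level in TMM-scaled CPM (y axis) of 8 members in each library by group (x axis, replicate by symbol), with the mean ± SD of 3 libraries in black. Mcm7, Mcm5 and Tk1 have lower points with AA in both populations, Rfc4 and Uhrf1 most clearly in αβ, Tyms in γδ, and Pcna and Hells have groups that overlap.

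Counted by overlap, 16 members had all 3 γδ libraries with AA below all 3 without AA, where 7.08% of tested genes did. In αβ 20 members did, against 10.9%, and 12 members did in both populations, against 1.53%. These 12 were Mcm3, Mcm4, Mcm5, Mcm7, Cdt1, Gins1, Gins2, Pole, Prim1, Rrm1, Tk1 and Ccne2.

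The AA effect was compared between the populations, and the populations with each other. In the difference of the AA effects, γδ minus αβ, 0 members passed an unadjusted p of 0.05, where 9.58% of all tested genes did, 0% passed the adjusted p, and the member median was 0.09, or -0.22 with DESeq2's size factors. In γδ against αβ with AA, 1 member did, where 18.5% of tested genes did and 0.0226% were called. This was Tyms, with a log2 fold change of -1.03 ± 0.37 and an adjusted p of 0.224. In γδ against αβ without AA, 0 members did, against 3.3% of tested genes, and 0% were called. The member median was -0.13 with AA and -0.12 without AA. It was -0.14 with AA and -0.33 without AA when the 2 libraries whose Trdc went against their labels were left out. The smallest p without AA belonged to Uhrf1, with -0.61 ± 0.43, and Mcm7, with -0.35 ± 0.28, each with an adjusted p of 1.

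Other genes of the cell cycle were taken from lists, none of them called at an adjusted p of 0.05. Outside the members, 45 genes of origins and forks were tested. At an unadjusted p under 0.05, 7 were lower with AA in γδ and 9 in αβ, against 3.85% and 6.01% of all tested genes. The 45 had medians of -0.47 and -0.64. Among them Pclaf, which binds the sliding clamp, averaged 132 ± 19.8 CPM in γδ with AA and 364 ± 84.4 CPM in γδ without AA. Orc1, a subunit of the origin recognition complex, had a log2 fold change of -1.82 ± 0.64 in γδ and -0.01 ± 0.62 in αβ. Pold2, a polymerase δ subunit, had -1.52 ± 0.41 in αβ and Rpa2, of the single strand binding complex, -1.40 ± 0.38.

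Of 26 further nucleotide supply genes, 4 were lower in γδ and 9 in αβ at that p, against 3.85% and 6.01% of all tested genes. Paics, an enzyme of purine synthesis, averaged 335 ± 52.1 CPM in γδ with AA and 512 ± 40.8 CPM in γδ without AA, and 307 ± 25.4 CPM in αβ with AA and 546 ± 44.1 CPM in αβ without AA. Impdh2, for guanine nucleotides, had a log2 fold change of -1.28 ± 0.31 in αβ, Dut, which removes dUTP, -1.09 ± 0.32 in γδ, and Ctps, for CTP, -1.36 ± 0.46 in γδ. Of 16 further chromatin genes, 2 were lower in γδ and 7 in αβ, against the same shares of all tested genes. Hat1, which acetylates new histone H4, had 139.7, 114 and 137 CPM in γδ with AA, against 195, 201 and 216 CPM in γδ without AA, and 67.6, 90.9 and 79.2 CPM in αβ with AA, against 207, 189 and 225 CPM in αβ without AA. Its log2 fold change in the mean of both, -1.02 ± 0.17, had an adjusted p of 0.124, below that of every member. Rbbp4, a histone chaperone, had -1.11 ± 0.25 in αβ and Cbx5, of heterochromatin, -1.08 ± 0.41 in γδ.

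Of 31 tested genes that control G1 to S, 3 were lower and 2 higher with AA in γδ at an unadjusted p under 0.05. Of all 22107 tested genes 852 were lower and 748 higher there. In αβ 9 of the 31 were lower and 0 higher, where 1328 and 935 of all tested genes were. The median log2 fold changes of the 31 were -0.08 in γδ and -0.73 in αβ. In the difference of the effects 0 of the 31 were called and 6 passed an unadjusted p of 0.05, where 9.58% of all tested genes did. The 2 higher ones in γδ were inhibitors of cyclin dependent kinases. Cdkn1a had 275, 108 and 195 CPM in γδ with AA, against 61.5, 64.1 and 16.6 CPM in γδ without AA, and 47.0, 37.3 and 38.9 CPM in αβ with AA, against 59.3, 40.2 and 89.0 CPM in αβ without AA. The γδ groups did not overlap, with a log2 fold change of 2.03 ± 0.51 and an adjusted p of 0.510, and the difference of effects was 2.64 ± 0.71, with an adjusted p of 0.442. Cdkn2b, named here after its values were seen, had 95.6, 31.7 and 204 CPM in γδ with AA, against at most 4.95 CPM in γδ without AA, and at most 1.38 CPM in αβ with AA, against 4.03 to 6.56 CPM in αβ without AA.

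Among genes that drive the switch, Cdk4, the kinase partner of D cyclins, averaged 176 ± 11.1 CPM in γδ with AA and 322 ± 9.40 CPM in γδ without AA, and 149 ± 20.5 CPM in αβ with AA and 283 ± 39.1 CPM in αβ without AA. Its log2 fold change in the mean of both was -0.90 ± 0.16, with an adjusted p of 0.149. Ccnd2, cyclin D2, averaged 304 ± 61.7 CPM in γδ with AA and 352 ± 161 CPM in γδ without AA, and 156 ± 14.7 CPM in αβ with AA and 506 ± 62.2 CPM in αβ without AA. Myc, a growth transcription factor, had a log2 fold change of -1.13 ± 0.33 in γδ and -1.34 ± 0.33 in αβ. Cdk6, the other kinase of D cyclins, and Ccnd1, cyclin D1, named here after their values were seen, had log2 fold changes of 0.48 ± 0.28 and 2.95 ± 1.67 in γδ, and -0.73 ± 0.28 and -2.12 ± 1.63 in αβ.

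Of 21 checkpoint and fork protection genes, 2 were lower in γδ and 3 in αβ at that p, against 3.85% and 6.01% of all tested genes. Chek1, a checkpoint kinase, had a log2 fold change of -1.78 ± 0.62 in γδ, and Trp53, the p53 gene, 0.05 ± 0.23 in γδ and -1.04 ± 0.23 in αβ.

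Genes of G2 and mitosis were set beside the members. Of 20 tested, 8 were lower with AA in γδ and 7 in αβ at that p, against 3.85% and 6.01% of all tested genes. The median log2 fold changes of the 20 were -1.12 and -0.82. Their summed level was 1043, 861 and 994 CPM in γδ with AA, against 1344, 1865 and 2612 CPM in γδ without AA, and 1379, 929 and 1529 CPM in αβ with AA, against 2268, 2449.9 and 1685 CPM in αβ without AA. The groups did not overlap, as for the member sum. Bub1b, of the spindle checkpoint, had a log2 fold change of -1.52 ± 0.45 in γδ and -1.81 ± 0.46 in αβ, Top2a, the topoisomerase, -1.08 ± 0.31 and -0.98 ± 0.31, Ube2c -1.38 ± 0.38 in γδ, and the kinetochore motor Cenpe -1.65 ± 0.39 in αβ.

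**Figure D5:**
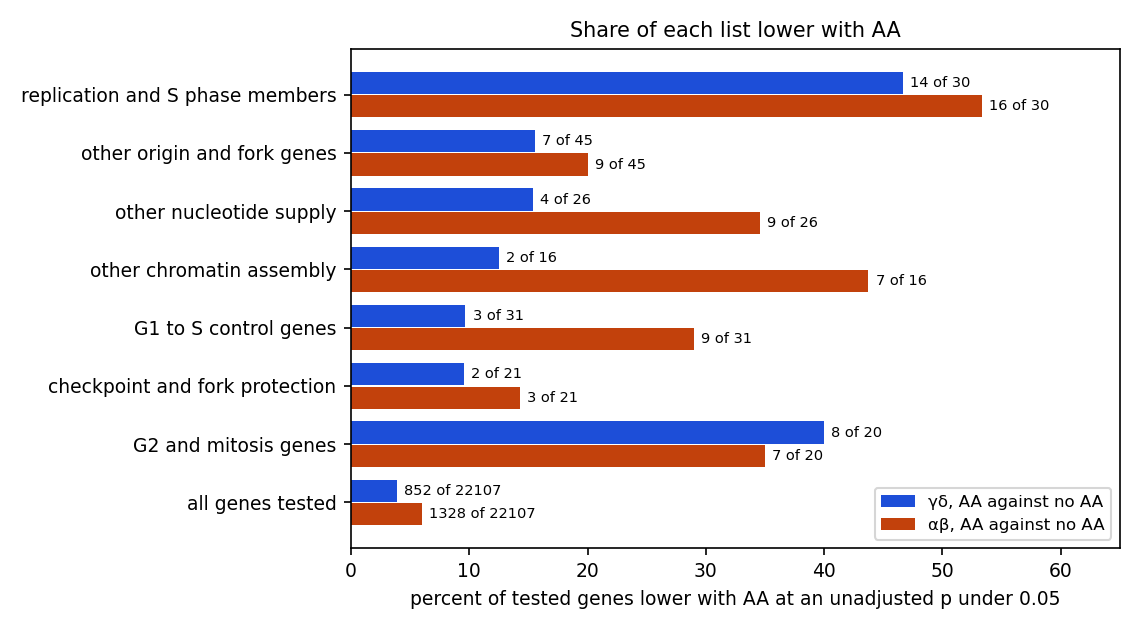
Percent of the tested genes of each list (rows) that were lower with AA at an unadjusted p under 0.05 (x axis), in γδ (blue) and αβ (orange), with the number of genes beside each bar and all 22107 tested genes at the bottom. The members stand at 14 and 16 of 30, against 852 and 1328 of all tested genes.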

How the data were processed

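The deposited table holds whole-number counts per gene for 12 libraries, with no normalization. Per the submitters' processing notes the authors used Bowtie 0.12.2 and the build mm8, and per the labels' protocols RNA from Trizol went into an Illumina TruSeq preparation. Which program counted reads, with what annotation and strand setting, is not stated in these sources. Identifiers were matched without version to GENCODE M21 names (55141 matched, 260 did not). Exon lengths and overlaps come from M21 and may differ from the annotation used for counting; a union of exons includes rare isoforms.

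Genes were kept by filterByExpr of edgeR 4.0.16 in R 4.3.3 (minimum count 10), which left 22107, scaled by TMM and fitted with glmQLFit and glmQLFTest with a mean for each of the 4 groups over all 12 libraries (8 residual degrees of freedom, common biological coefficient of variation 1.21). P-values were adjusted over all tested genes by Benjamini-Hochberg, with calls under 0.05. Values of libraries and means ± SD (n = 3) are TMM-scaled CPM, except Trdc and marker shares, which are of all counts; fold changes have SE. The script was tested on simulated data, with a pass rule only for large changes at a low spread. That rule does not bear on changes of the size described here at the spread of these data.

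Groups came from the labels. Same-numbered libraries with and without AA did not deviate together (correlations -0.04 to 0.09), so the main test has no block. Replicates were not copies of each other (chi-square per degree of freedom 52.4 to 268). The members and lists were chosen with earlier results of these data known. Values in every library are given for Mcm2 to Mcm7, Pcna, members called, and the 5 members with the smallest p in each comparison; other lists give up to 4 called genes, else the 2 with the smallest p in each AA comparison. The values of 1 gene that this rule names are not reported here. Alternatives were 2 other scalings, no filter, 5 CPM in 3 libraries, a replicate block, a fit of the compared groups alone, DESeq2 1.42.0, voom of limma 3.58.1 and each library left out. Counts at an unadjusted p were added to the alternatives after the data were seen.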

Additional observations from a re-analysis of the deposited data

How the results depend on the processing

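Depth was lowest in αβ with AA, and its part in the results was not tested. No alternative but leaving them out removes the conflict of Trdc with the labels of 2 libraries without AA. None removes that of Trac in the libraries with AA. Members called at an adjusted p under 0.05 were 0 in edgeR's main test. With no filter they became 3 in αβ and 6 in the mean of both, where 264 and 319 of 44233 genes were called. With DESeq2 they became 1 in γδ and 6 in the mean of both, where 332 and 637 of 44233 genes were called. Voom called 3 members in the mean of both, among 64 of 22107 genes. In γδ against αβ with AA DESeq2 called 1 member, among 2366 of 44233 genes. The cause was not tested. In the mean of both, DESeq2 called Cdt1, Gins2, Mcm5, Mcm7, Prim1 and Tk1, and voom called Mcm3, Mcm5 and Mcm7.

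The member median of AA in αβ was -0.59 with DESeq2's size factors, -0.65 with the 5 CPM filter and -0.56 with DESeq2. With the size factors the median of all genes there moved to 0.50. The gap from it to the member median was -1.10 with TMM and with the size factors, -0.67 with the 5 CPM filter and -1.48 with DESeq2. The median of the difference was -0.22 with the size factors and -0.23 with DESeq2, against 0.09, so its sign is not settled. In γδ against αβ with AA it was -0.48, -0.43 and -0.48 with the size factors, the 5 CPM filter and DESeq2. Members lower at an unadjusted p under 0.05 in αβ were 8 with each of these 3, against 2.04%, 4.03% and 1.61% of all tested genes, and 9 in γδ without both replicate 3 libraries without AA.

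With each library left out in turn, 0 members were called in any comparison. Medians ranged from -1.04 to -0.86 in γδ, -1.05 to -0.87 in αβ, -1.06 to -0.86 in the mean of both, -0.07 to 0.25 in the difference, -0.33 to -0.08 in γδ against αβ with AA and -0.24 to 0.07 without AA. Members lower at an unadjusted p under 0.05 ranged from 9 to 17 in γδ, 11 to 16 in αβ and 16 to 23 in the mean of both. The share of all tested genes ranged from 1.48% to 3.99%, 2.90% to 7.33% and 3.09% to 6.63% in that order. With the replicate block, 0 members were called, and 13, 15 and 22 were lower at that p in γδ, αβ and the mean of both. Of all tested genes 2.42%, 6.34% and 5.36% were lower there. Over all genes the block called 0, where the main test called 3 in αβ, 2 in γδ and 5 in γδ against αβ with AA.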
